A study of Mus musculus with 11 samples.

Results

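Among the 21772 protein-coding genes of a table of 48795 mouse genes, 45 carried a symbol that begins with Psma, Psmb, Psmc, Psmd or Psme followed by a number, and these were taken as the proteasome subunit genes. They comprised 7 genes of the α ring of the core particle (Psma1 to Psma7), 4 structural β subunits (Psmb1 to Psmb4), 3 constitutive catalytic β subunits (Psmb5 to Psmb7) and 3 catalytic β subunits of the immunoproteasome (Psmb8 to Psmb10). The regulatory particle was represented by 6 ATPases (Psmc1 to Psmc6) and 3 non-ATPase subunits (Psmd1, Psmd2 and Psmd4) of its base, 8 subunits of its lid and 3 assembly chaperones of the base. There were also 5 activators and 2 tissue-specific core subunits. The remaining gene, Psmc3ip, matched by its symbol alone, since its product is a partner of meiotic recombinases and no subunit of the proteasome.

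The proteasome degrades proteins tagged with ubiquitin. A barrel of stacked α and β rings holds the proteolytic sites inside, and a regulatory particle on its end binds ubiquitin, removes it, unfolds the substrate with its ring of ATPases and feeds it into the barrel. In lymphocytes and in cells exposed to interferon, immunoproteasome subunits replace the constitutive catalytic subunits, and the activator PA28, built of Psme1 and Psme2, opens the barrel without ATP. Both are known for supplying peptides for presentation on MHC class I.

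RNA was measured in 11 libraries of B cells sorted from spleens of female mice, 8 to 12 weeks old, on day 10 after intravenous immunization with sheep red blood cells. Light zone (LZ) germinal center B cells (B220+ CD138neg IgDneg CD38neg Fas+ CD86high CXCR4low) came from 4 Myc WT mice, numbered 1 to 4, and from 4 Myc V394D mice, numbered 5 to 8, which carry a valine to aspartate change in MYC that disrupts its binding to the partner protein MIZ1. Memory B cells (B220+ CD138neg IgDneg CD38+ CD273+) came from Myc WT mice 1, 3 and 4 of the same set. Both comparisons, memory against LZ and Myc V394D against Myc WT, use the same 4 Myc WT LZ libraries. By the names in the titles, Myc WT mice 1 to 3 share a prefix, mouse 4 has another, and all Myc V394D mice share one of their own; what the prefix marks is not stated, and it cannot be told apart from the genotype. A missense change leaves no trace in gene-level TPM, so the genotype labels were not checked against the data.

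Values are in TPM, estimated reads per transcript length scaled to 1000000 per library. They hold no depth, so precision rests on the spread between mice. Ribosomal RNA genes took 35.7% to 44.5% of TPM in Myc WT LZ, 44.1% to 61.3% in Myc V394D LZ and 36.1% to 37.5% in memory libraries. Of 6668 genes with a mean of 10 TPM or more in LZ libraries, 253, 421 and 57 were listed at 0 in the memory libraries of mice 1, 3 and 4, against 34 to 69 in LZ libraries. The sort labels matched the data, since 6 memory B cell markers summed to 506 to 816 TPM in memory and to 17.4 to 36.0 TPM in LZ libraries. The 8 germinal center markers summed to 466 to 600 TPM in memory and 668 to 1206 TPM in LZ libraries. The memory library of mouse 3 held 4298 TPM over 3 erythroid genes, against 4.74 and 21.8 TPM in the other memory libraries and 31.2 to 239 TPM in LZ libraries. The 5 myeloid genes summed to 36.4 to 178 TPM in memory and 7.69 to 18.0 TPM in LZ libraries. Of the myeloid genes, Itgam was at 3.84 to 9.18 TPM in memory and at most 0.21 TPM in LZ libraries, and S100a8 was listed at 0 in all memory libraries; the part of other cells in the results was not tested. The memory library of mouse 4 correlated more closely over genes with Myc WT LZ libraries (mean r = 0.832) than with the other memory libraries (mean r = 0.746).

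In Myc WT LZ B cells, 43 of the 45 genes were present at a mean of 13.5 TPM (Psmd3, a lid subunit) to 336 TPM (Psma7, of the α ring). On this per-length scale, the summed level was 1342 ± 263 TPM for the α ring (SD, n = 4), 416 ± 97.2 TPM for the ATPases and 521 ± 102 TPM for the lid. The immunoproteasome genes made up 62.4% to 65.5% of the TPM of the 6 catalytic genes in these libraries. The remaining genes were the tissue-specific subunits: Psma8, a subunit known from testis, was listed at 0.36 TPM in Myc WT mouse 2, at 0.39 TPM in Myc V394D mouse 5 and at 0 in the other 9 libraries. Psmb11, known from cortical epithelium of the thymus, was listed at 0.04 TPM in Myc WT mouse 3 and at 0 in the other 10. Neither reached a mean of 1 TPM, and both were left out of the tests.

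Memory B cells had lower levels of several core subunits than Myc WT LZ B cells. Of the activators, Psme2b was higher and the others did not pass the test, although the values of Psme2 and its near-identical copy Psme2b cannot be fully separated and their sum rose. Of the 43 genes tested on log2(TPM + 1) with limma, 7 fell in memory B cells at an adjusted p under 0.05, against 5.04% of all 13245 genes tested, and 1 rose, against 4.17% of all genes. The genes that fell were Psma2 and Psma7 of the α ring, the structural subunits Psmb1 and Psmb3, the catalytic subunit Psmb5, the ATPase Psmc4 and Psmc3ip, and the gene that rose was Psme2b. At an unadjusted p under 0.05, 18 genes were lower, against 15.8% of all genes. Likewise 18 had every memory library below every Myc WT LZ library, against 14.4% of all genes. For 1 gene every memory library lay above, against 11.8%. The difference was below 0 for 36 of the 43, against 55.3% of all genes, with a median of −0.98 on the log2 scale, beside a median of −0.14 over all genes tested. With the mouse as a block, 1 of these genes fell, Psmb3 (adjusted p = 0.0399), and 1 rose, Psme2b (adjusted p = 0.0089), while 118 of all genes fell and 130 rose. Without any 1 of the Myc WT LZ libraries, 1 rose and 1 or 2 fell, while 137 to 265 of all genes fell, against 667 with all libraries. Without memory mouse 1, 5 fell, with 581 of all genes. Without memory mouse 3, which held the erythroid transcripts, 6 fell, with 784 of all genes, and without memory mouse 4, 13 fell, with 1830 of all genes. Memory libraries varied more from each other than LZ libraries did, with a median SD of 0.71 log2 units over the 43 genes, against 0.31 in Myc WT LZ and 0.46 in Myc V394D LZ. The 4370 genes at like levels had medians of 0.69, 0.28 and 0.46. In bulk RNA, fewer cells of a type and less RNA per cell cannot be told apart.

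**Figure D1:**
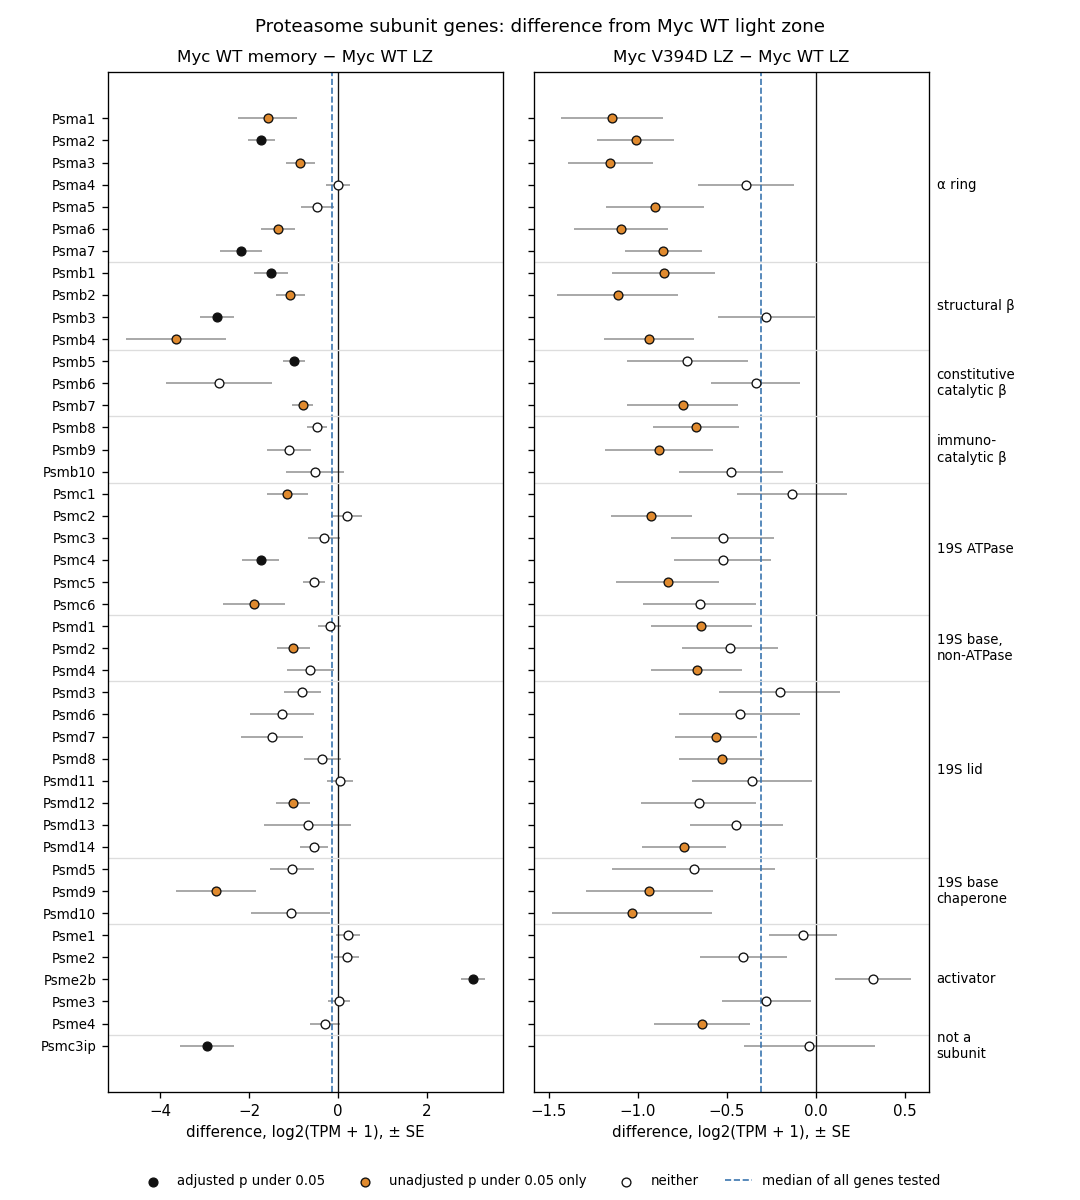
Difference in log2(TPM + 1) from Myc WT LZ for each of the 43 genes tested, ordered by role, in memory B cells (left) and Myc V394D LZ B cells (right), with bars of 1 SE; the 2 panels have different scales and share their control libraries. Black points passed an adjusted p of 0.05 and orange points only an unadjusted one; in memory B cells 7 black points lie below 0 and Psme2b above it at 3.03, and in Myc V394D 42 of 43 points lie below 0 and none is black.

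The α ring gates the entry to the core. Psma7 (chr2:180036374-180042433, GRCm38), the most abundant of these genes in Myc WT LZ B cells, was listed at 303, 413, 348 and 281 TPM in Myc WT LZ mice 1 to 4 and at 52.4, 39.0 and 187 TPM in memory B cells of mice 1, 3 and 4. The groups did not overlap, although mouse 4 lay far above the other memory libraries, and the mean was 3.63-fold lower (−2.18 ± 0.48 log2, SE, adjusted p = 0.0265). Psma2 (chr13:14613240-14674236) was at 202, 195, 203 and 148 TPM in LZ and at 38.4, 52.2 and 85.8 TPM in memory libraries. All memory values lay below all LZ values, and the mean was 3.18-fold lower (−1.72 ± 0.30, adjusted p = 0.0122). The other α subunits did not pass the test, with differences from −1.58 for Psma1 to 0.00 for Psma4. In memory libraries Psma1 ranged from 11.2 TPM in mouse 3 to 104 TPM, with a difference of −0.64 without mouse 3, and Psma5 from 55.2 to 140 TPM. Gm13835, a pseudogene identical to Psma3 over 685 bases, was listed at a mean of 7.12 TPM, against 175 TPM for Psma3.

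The structural β subunits complete the inner rings without a proteolytic site of their own. Psmb3 (chr11:97703399-97713500) was at 89.7, 102, 108 and 76.8 TPM in LZ and at 10.2, 8.86 and 25.1 TPM in memory libraries. Every memory library held less than a library of any LZ mouse, and the mean was 6.39-fold lower (−2.73 ± 0.38, adjusted p = 0.0053). Psmb1 (chr17:15475021-15499751) was at 92.7, 143, 131 and 85.3 TPM in LZ and at 24.4, 33.6 and 67.3 TPM in memory libraries. Its groups did not overlap either, and its mean was 2.71-fold lower (−1.51 ± 0.38, adjusted p = 0.0416). Psmb4 had the largest difference on the log2 scale, −3.65 ± 1.12, and a mean 5.59-fold lower, less than that of Psmb3, and did not pass the test (adjusted p = 0.0759). It was at 49.0, 0.66 and 75.2 TPM in memory libraries against 204 to 277 TPM in LZ. The summed TPM of Psmb1 to Psmb4 was 464 to 667 in Myc WT LZ and 116 to 260 in memory libraries, the lowest ratio of means of the groups of subunits, at 0.287.

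The catalytic β subunits carry the proteolytic sites. Psmb5, with chymotrypsin-like activity, was at 100.03, 129, 148 and 99.4 TPM in Myc WT LZ, at 128, 96.9, 41.9 and 47.9 TPM in Myc V394D LZ and at 65.6, 53.0 and 59.2 TPM in memory libraries. The memory values lay close together and below all Myc WT LZ values, 2.01-fold lower in the mean (−0.98 ± 0.25, adjusted p = 0.0425), while the Myc V394D values spread from within the Myc WT range to below it. Psmb7, with trypsin-like activity, was at 115, 135, 152 and 97.5 TPM in Myc WT LZ, at 103, 112, 58.2 and 41.9 TPM in Myc V394D LZ and at 64.2, 77.6 and 70.4 TPM in memory libraries. It showed the same lack of overlap in memory with an adjusted p of 0.0736 (−0.80 ± 0.24). Psmb6, with caspase-like activity, was at 79.8, 131, 119 and 89.2 TPM in Myc WT LZ, at 73.6, 116, 81.8 and 61.7 TPM in Myc V394D LZ and at 0.27, 78.5 and 41.6 TPM in memory libraries. Memory values lay below all Myc WT LZ values, with mouse 1 far below the others (−2.67 ± 1.20, adjusted p = 0.190), and without mouse 1 the difference was −0.84.

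The immunoproteasome counterparts replace these subunits in order: Psmb8 for Psmb5, Psmb9 for Psmb6 and Psmb10 for Psmb7. Psmb8 was at 200.0, 239, 280 and 206 TPM in Myc WT LZ, at 224, 141, 115 and 116 TPM in Myc V394D LZ and at 184, 184 and 133 TPM in memory libraries. All memory libraries lay below all Myc WT LZ libraries, but the difference of −0.47 ± 0.22 did not pass the test (adjusted p = 0.216). Psmb9 was at 195, 333, 312 and 263 TPM in Myc WT LZ, at 148, 270, 102 and 112 TPM in Myc V394D LZ and at 200, 47.4 and 205 TPM in memory libraries. Memory mouse 3 lay far below all other Myc WT libraries, and the groups overlapped (−1.11 ± 0.49, adjusted p = 0.187). Without mouse 3 the difference was −0.42. Psmb10 was at 93.6, 96.0, 115 and 74.96 TPM in Myc WT LZ, at 58.3, 40.9, 112 and 75.5 TPM in Myc V394D LZ and at 18.1, 182 and 81.7 TPM in memory libraries. Its memory libraries enclosed the whole LZ range, and without mouse 1 its difference of −0.52 turned to 0.38.

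**Figure D2:**
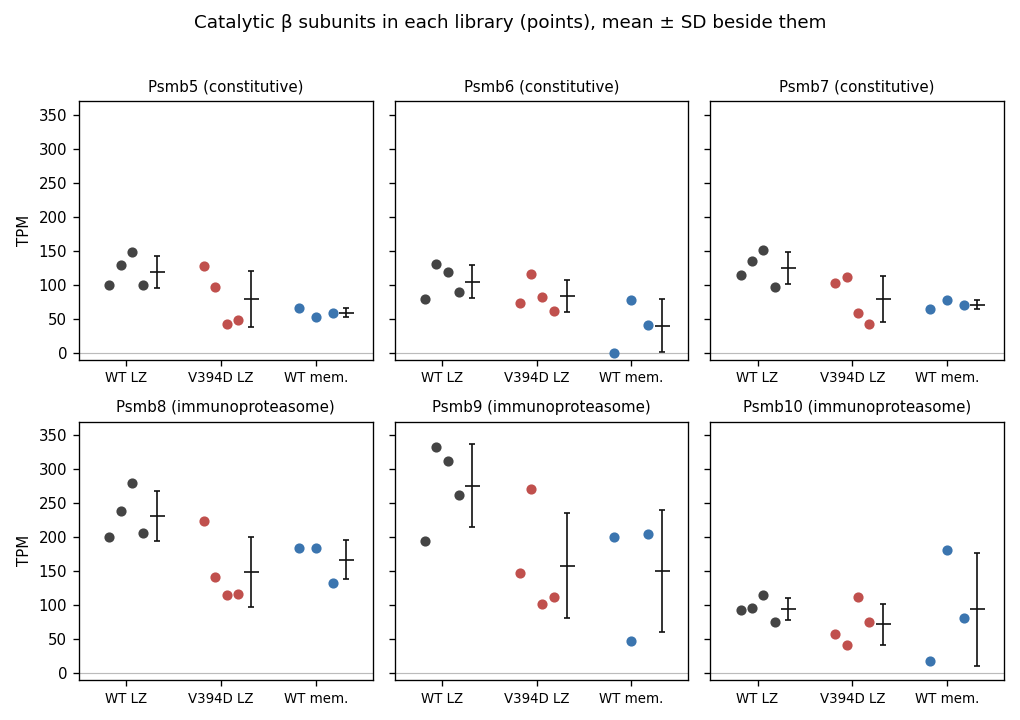
TPM of the 3 constitutive (top) and 3 immunoproteasome (bottom) catalytic β subunits in each library (points, by group in order of mouse number), with the mean and SD of each group as a bar beside them. Psmb5 in memory B cells lies at 53.0 to 65.6 TPM, below all Myc WT LZ values, while Psmb10 in memory B cells runs from 18.1 to 182 TPM across the LZ range.

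Pairs of subunits were also compared within each library, as ratios of TPM + 1. The log2 ratio of Psmb8 to Psmb5 was 1.47, 1.77 and 1.16 in memory libraries and 0.89 to 1.04 in Myc WT LZ libraries. The ratio was higher in all 3 memory libraries than in any Myc WT LZ library, by 0.51 log2 or 1.42-fold. The test gave the smallest p that an exact two-sided permutation test over 35 groupings of 3 against 4 libraries can give (exact permutation p = 0.0286). It did not pass after adjustment over the 6 ratio tests (adjusted p = 0.0857). The ratio tests treated libraries as unpaired, although the memory libraries came from mice 1, 3 and 4 of the Myc WT LZ set. For Psmb9 to Psmb6, the memory difference was 1.57 (exact permutation p = 0.600). It was 2.16 with a pseudocount of 0.1 in place of 1, and without mouse 1 it turned to −0.61. For Psmb10 to Psmb7 it was 0.28 (exact permutation p = 0.600) and turned to −0.39 without mouse 3. The share of catalytic TPM from immunoproteasome genes was 75.6%, 66.4% and 71.0% in memory libraries, all above the 62.4% to 65.5% of Myc WT LZ, and it was 58.2% to 66.7% in Myc V394D LZ.

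The ATPases form the ring that unfolds substrates. Psmc4 (chr7:28041707-28050101) was at 67.1, 80.1, 94.9 and 52.0 TPM in Myc WT LZ and at 16.0, 13.9 and 39.7 TPM in memory libraries. The groups did not overlap, and the mean was 3.17-fold lower in memory B cells (−1.74 ± 0.41, adjusted p = 0.033). No other subunit of the regulatory particle passed the test. Of the 17 tested, Psmc4 included, 15 had a difference below 0, against 55.3% of all genes, with a median of −0.68, against −0.14. At an unadjusted p under 0.05, 5 of the 17 were lower, against 15.8% of all genes. Psmc2 and Psmc5, both ATPases, had memory values of 46.1 to 105 TPM and 69.0 to 75.02 TPM, against 42.9 to 71.4 TPM and 84.6 to 140 TPM in Myc WT LZ. Neither passed the test. Psmd14, the deubiquitinase of the lid, was at 65.0 to 134 TPM in memory and 101 to 169 TPM in LZ libraries (−0.54 ± 0.31). Psmd4, a ubiquitin receptor, was at 15.8 to 78.8 TPM and 56.3 to 92.7 TPM (−0.62 ± 0.54). Psmd13 spread from 2.06 TPM in mouse 1 to 86.7 TPM in mouse 3. Gm15542, a pseudogene that overlaps it on the same strand, was listed at a mean of 27.9 TPM. Whether reads of these genes can be separated was not tested. Of the assembly chaperones of the base, Psmd9 was listed at 0 in memory libraries of mice 1 and 3 and at 12.8 TPM in mouse 4, against 12.9 to 19.3 TPM in LZ (adjusted p = 0.0906). Psmd10 ran from 2.63 to 85.8 TPM and Psmd5 from 6.53 to 24.9 TPM.

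Psmc3ip, a meiotic recombination factor and no proteasome gene, was at 9.85, 21.6, 25.2 and 12.9 TPM in Myc WT LZ and at 2.46, 0 and 2.23 TPM in memory libraries. All memory values lay below all LZ values (−2.95 ± 0.61, adjusted p = 0.0216), and in Myc V394D LZ libraries it was at 9.23 to 24.4 TPM, within the Myc WT range but for the lowest library.

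**Figure D3:**
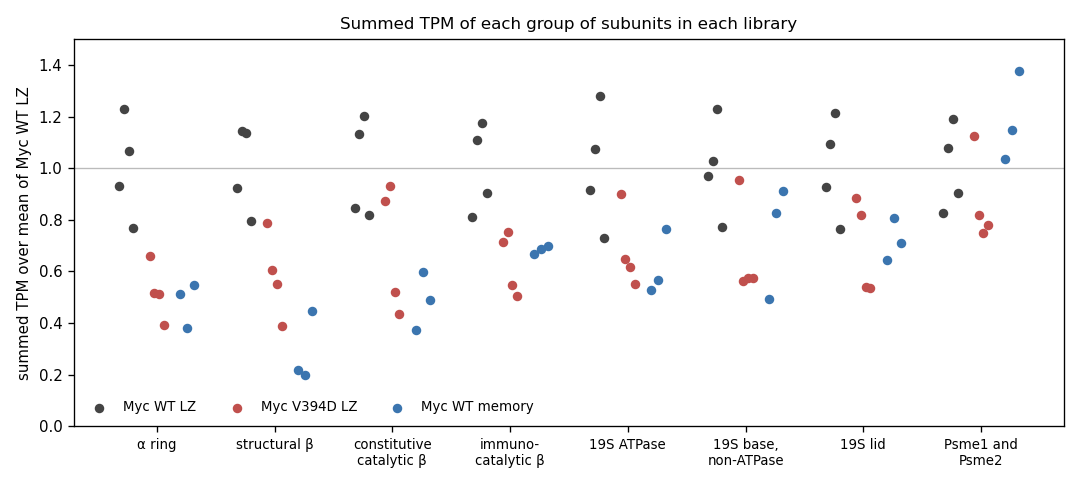
Summed TPM of each group of subunits in each library (points), divided by the mean of the 4 Myc WT LZ libraries, which lies at 1. Structural β subunits in memory B cells have a ratio of means of 0.287 and the PA28 pair Psme1 and Psme2 one of 1.19; in Myc V394D these ratios are 0.583 and 0.868.

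Activators bind the end of the core in place of the regulatory particle. Psme1 was at 196, 216, 267 and 217 TPM in Myc WT LZ, at 260, 218, 189 and 186 TPM in Myc V394D LZ and at 170, 311 and 339 TPM in memory libraries. Psme2 was at 129, 206, 199 and 138 TPM in Myc WT LZ, at 180, 103, 105 and 120 TPM in Myc V394D LZ and at 237, 139 and 202 TPM in memory libraries. For both genes the memory values overlapped the LZ values, with differences of 0.23 ± 0.27 and 0.19 ± 0.28 that did not pass the test (adjusted p = 0.628 and 0.695). Psme3, which forms a nuclear activator, was at 88.4, 68.0, 97.9 and 66.5 TPM in Myc WT LZ, at 48.4, 74.5, 92.0 and 53.7 TPM in Myc V394D LZ and at 86.7, 87.3 and 68.4 TPM in memory libraries. Psme4, the large single-chain activator PA200, was at 33.6, 28.1, 35.6 and 21.4 TPM in Myc WT LZ, at 25.9, 17.0, 14.3 and 17.7 TPM in Myc V394D LZ and at 19.1, 21.6 and 31.3 TPM in memory libraries. Psme3 overlapped between all 3 groups, and Psme4 had 3 of 4 Myc V394D libraries below all Myc WT libraries. The summed TPM of Psme1 and Psme2 relative to the α ring sum was 0.256 to 0.343 in Myc WT LZ, 0.428 to 0.581 in Myc V394D LZ and 0.59 to 0.879 in memory libraries, with no overlap between either group and Myc WT LZ.

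Psme2b is a copy of Psme2 that lies in a single exon at chr11:48945354-48946190 on the minus strand, whereas Psme2 has 11 exons in the transcript compared, at chr14:55587441-55591113. The coding sequences, 720 bases each in GENCODE M21, differ at 5 bases, and the longest identical run is 311 bases. The 60 coding bases with the most differences, positions 484 to 543 from the start codon, are shown because within the coding sequence only reads over such bases can separate the genes; capitals mark the 3 differing bases (C489T, C519T and C543T, with the base of Psme2 first). The Psme2 stretch lies within chr14:55588049-55588246 and crosses an intron, and that of Psme2b is chr11:48945576-48945635, both on the minus strand of GRCm38.
Psme2: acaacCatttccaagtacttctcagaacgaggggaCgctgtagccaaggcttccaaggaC
Psme2b: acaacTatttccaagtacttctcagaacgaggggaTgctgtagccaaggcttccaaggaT

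Psme2b was at 23.7, 25.3, 23.0 and 21.4 TPM in Myc WT LZ, at 30.0, 26.4, 32.4 and 28.8 TPM in Myc V394D LZ and at 247, 145 and 214 TPM in memory libraries. Memory libraries lay far above all LZ libraries, 8.65-fold in the mean (3.03 ± 0.27, adjusted p = 0.0011), and Psme2b rose in memory B cells under every alternative setting tried. Psme2b took 51.0%, 51.1% and 51.4% of the summed TPM of Psme2 and Psme2b in memory libraries, 10.3% to 15.5% in Myc WT LZ and 14.2% to 23.5% in Myc V394D LZ. The sum of both genes was 153 to 232 TPM in Myc WT LZ and 484, 284 and 416 TPM in memory libraries, and tested as 1 gene it rose by 1.03 log2 (adjusted p = 0.0428). How reads shared by the copies were divided was not tested, so the separate values of Psme2 and Psme2b are uncertain. The start of Psme2b overlaps 41 bases of 9930111J21Rik1 (chr11:48946150-48979398) on the same strand. That gene was at 49.5 to 56.7 TPM in Myc WT LZ and at 201, 304 and 219 TPM in memory libraries (2.15 ± 0.23, adjusted p = 0.0021). Whether reads from 9930111J21Rik1 transcripts contribute to Psme2b was not tested.

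**Figure D4:**
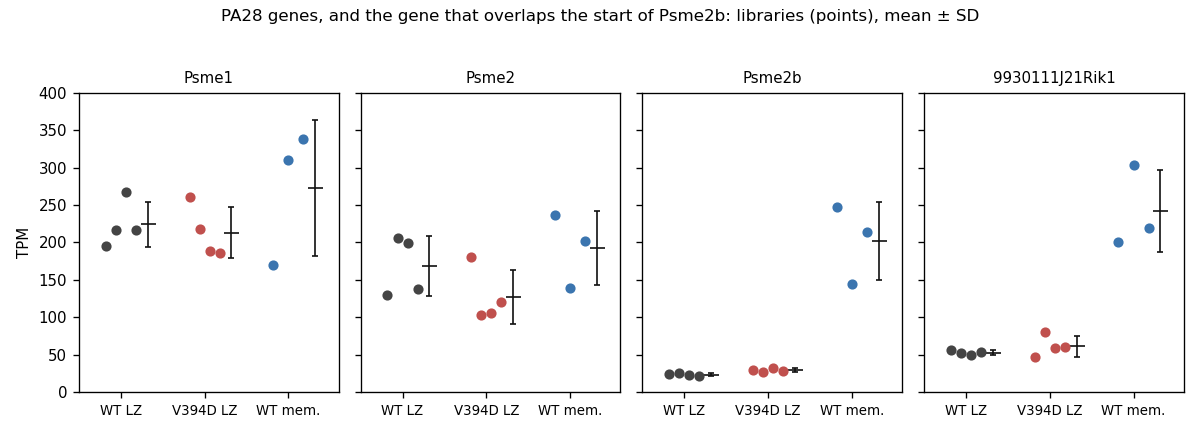
TPM of Psme1, Psme2, its copy Psme2b and 9930111J21Rik1, which overlaps the start of Psme2b, in each library (points), with the mean and SD of each group. Psme2b and 9930111J21Rik1 lie at 145 TPM or more in all 3 memory libraries and at 80.3 TPM or less in all LZ libraries, while Psme1 and Psme2 overlap between groups.

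In Myc V394D LZ B cells the 43 genes tested, Psmc3ip among them, were mostly lower than in Myc WT LZ B cells. No single gene passed the adjusted test. Without Psmc3ip, the difference was below 0 for 41 of 42 genes, with a median of −0.66. With limma, 0 of 43 fell and 0 rose, against 0.0389% and 0.00777% of all 12869 genes tested, which amount to 5 genes and 1 gene. At an unadjusted p under 0.05, 22 of the 43 were lower, against 15.7% of all genes, and none was higher. Every Myc V394D library lay below every Myc WT library for 6 genes, against 9.16% of all genes, and above for 1, Psme2b, against 0.816%. The difference was below 0 for 42 of the 43, against 73.7% of all genes (36 with median-ratio scaling, where Psmb3, Psmc3ip, Psme1 and Psme3 were among those above 0), with a median of −0.65, beside a median of −0.31 over all genes tested, and 36 lay below that median. When libraries were rescaled by the median ratio, the median of all genes moved to −0.01 and that of the 43 genes to −0.32, and 11 of the 43 were lower at an unadjusted p under 0.05. The share of ribosomal RNA was also higher in Myc V394D libraries, as given above. Removal of ribosomal RNA genes left a median of −0.35 and 11 such genes, and the part of ribosomal RNA in the differences was not tested further. The shares of 15.7% and 73.7% above belong to TPM as deposited. Shares of all genes with rescaling or without ribosomal RNA genes are not given, so these counts have no background beside them.

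Psma3, of the α ring, was at 215, 351, 265 and 198 TPM in Myc WT LZ and at 131, 140, 93.3 and 91.4 TPM in Myc V394D LZ. The groups did not overlap, and the mean was 2.25-fold lower (−1.16 ± 0.24, adjusted p = 0.0971). Psma2 was at 114, 99.3, 92.8 and 67.1 TPM in Myc V394D mice 5 to 8, below the 148 to 203 TPM of Myc WT LZ (−1.01 ± 0.22, adjusted p = 0.0977). Psma6 was at 168, 278, 186 and 141 TPM in Myc WT LZ and at 121, 62.0, 94.9 and 81.1 TPM in Myc V394D LZ, again with no overlap (−1.10 ± 0.26, adjusted p = 0.111).

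Psma1 was at 160, 141, 164 and 83.2 TPM in Myc WT LZ and at 88.4, 66.1, 45.1 and 47.3 TPM in Myc V394D LZ. Only Myc WT mouse 4 reached into the Myc V394D range (−1.14 ± 0.28, adjusted p = 0.116). Psmb2, a structural β subunit, was at 153, 145, 179 and 96.7 TPM in Myc WT LZ and at 111, 84.9, 35.2 and 50.7 TPM in Myc V394D LZ (−1.11 ± 0.34, adjusted p = 0.154). Psmd10, the chaperone gankyrin, was at 29.1, 46.1, 45.2 and 34.7 TPM in Myc WT LZ and at 25.8, 43.8, 11.8 and 7.65 TPM in Myc V394D LZ (−1.03 ± 0.45, adjusted p = 0.273). In both genes the Myc V394D libraries spread widely, with the lowest values in mice 7 and 8.

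By role, the α ring had the lowest median difference in Myc V394D, at −1.01, against −0.31 over all genes, with 6 of 7 genes lower at an unadjusted p under 0.05, against 15.7% of all genes. The medians were −0.94 for the assembly chaperones of the base, −0.90 for the structural β subunits, −0.72 for the constitutive and −0.67 for the immunoproteasome catalytic subunits, −0.65 for the non-ATPase subunits of the base, −0.59 for the ATPases, −0.49 for the lid and −0.28 for the activators, the last near the median of all genes. The α ring sum was 527 to 885 TPM in Myc V394D and 1034 to 1651 TPM in Myc WT LZ libraries, without overlap, and the ATPase sum 228 to 374 TPM and 303 to 532 TPM, with overlap. Relative to the α ring sum, the ATPase sum was 0.373 to 0.433 in Myc V394D and 0.271 to 0.371 in Myc WT LZ libraries. These differences between roles were not tested.

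Without Myc V394D mouse 5, 4 of the genes chosen by symbol fell at an adjusted p under 0.05, and 242 of all genes did. Leaving out any other library gave 0. Mouse 5 had the highest summed TPM of its group over the genes chosen by symbol, 3726 TPM, against 2265 to 3172 TPM in mice 6 to 8 and 3723 to 5362 TPM in Myc WT LZ. It also had the lowest share of ribosomal RNA of its group, 44.1%. The log2 ratio of Psmb9 to Psmb6 was 1.00, 1.22, 0.32 and 0.85 in Myc V394D and 1.28 to 1.55 in Myc WT LZ libraries. The groups did not overlap, with a difference of −0.54 at the smallest p that the exact permutation test over 70 groupings can give (p = 0.0286, adjusted p = 0.0857 over the 6 ratio tests). The ratio of Psmb8 to Psmb5 differed by 0.05 (exact permutation p = 0.857) and that of Psmb10 to Psmb7 by 0.27 (exact permutation p = 0.657).

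Of 23 other genes of the pathway, 4 fell in memory B cells and none rose at an adjusted p under 0.05, against 5.04% and 4.17% of all genes, with a median difference of −0.81. Of these, 3 were chaperones that assemble the core particle. Psmg1 was at 12.2 to 25.5 TPM in Myc WT LZ and at 0.96, 2.08 and 4.93 TPM in memory libraries (−2.69 ± 0.52, adjusted p = 0.0172). Psmg3 was at 18.7 to 24.3 TPM and at 0, 5.28 and 5.40 TPM (−2.66 ± 0.68, adjusted p = 0.0431). Pomp was at 132 to 171 TPM and at 52.9, 85.8 and 60.2 TPM (−1.20 ± 0.25, adjusted p = 0.0236). All memory libraries lay below all Myc WT LZ libraries for these chaperones, as for the deubiquitinase Uchl5, with 70.5 to 107 TPM and 13.4, 5.83 and 47.1 TPM (−2.28 ± 0.58, adjusted p = 0.0441). The ubiquitin gene Ubb was at 278 to 466 TPM in LZ and at 116, 67.0 and 260 TPM in memory libraries (adjusted p = 0.0517). Nfe2l1 and Nfe2l2, transcription factors known to act on proteasome genes, had differences of 0.83 ± 0.35 and 1.19 ± 0.50 that did not pass the test (adjusted p = 0.173 and 0.168). In Myc V394D none of the 23 passed, with a median of −0.42 and 6 lower at an unadjusted p under 0.05, against 15.7% of all genes.

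Of genes of antigen processing that are known to be induced together with the immunoproteasome, B2m and Nlrc5 rose in memory B cells at an adjusted p under 0.05, as did 4.17% of all genes. Tap1, Tap2, Tapbp, Irf1 and Erap1 did not pass, with adjusted p from 0.110 for Tap2 to 0.833 for Tapbp and a difference of −0.81 for Erap1. B2m, the light chain of MHC class I, was at 899 to 1485 TPM in Myc WT LZ and at 3175, 3260 and 3118 TPM in memory libraries (1.43 ± 0.19, adjusted p = 0.0046). For Nlrc5, a transactivator of MHC class I genes, the difference was 1.58 ± 0.41 (adjusted p = 0.0461). None of the 3 immunoproteasome subunits rose. In Myc V394D none of these genes passed the test.

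Upstream sequence from RefSeq (GRCm38.p6) was held for 38 of the 45 genes, and the 250 bases before each start were searched on both strands for motifs of factors known from proteasome and interferon-induced genes. The core of the antioxidant response element (TGACNNNGC), which the Nfe2l factors bind, matched in 5 of the 38 (Psmb5, Psmb6, Psmc6, Psmd9 and Psmd12), or 13.2%, against 10.2% of all 32851 windows. CCAAT matched in 15, or 39.5%, against 33.8%, and the core of the interferon-stimulated response element (GAAA, 2 bases of any kind, GAAA) in 3, or 7.89%, against 2.98%. The latter 3 were Psmb3, Psmd4 and Psmd9, and none was an immunoproteasome or PA28 gene. A gene counted as matching if any of its windows did, whereas the share of all windows counts each window alone. Psma6 and Psmc2 matched CCAAT in only part of their windows. Other forms of these motifs, and sequence outside the 250 bases, were not searched. The stretches of 2 catalytic genes are shown with the TGACNNNGC match in capitals, to let the matched letters be read. That of Psmb5 is chr14:54618009-54618067 on the minus strand, and the match starts 47 bases before the RefSeq start, which lies inside the gene bounds of the annotation used elsewhere, so that the stretch shown overlaps the gene by those bounds. That of Psmb6 is chr11:70525323-70525356 on the plus strand, with the match 9 bases before the RefSeq start.
Psmb5: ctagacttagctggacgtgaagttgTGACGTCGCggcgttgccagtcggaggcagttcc
Psmb6: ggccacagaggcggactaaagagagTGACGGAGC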

How the data were processed

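RNA of sorted B cells was sequenced by the authors as 1 library per mouse and cell type (NuGEN cDNA kit, Illumina HiSeq). Per the labels and the study's methods, reads were aligned with STAR 2.5.2a and quantified with RSEM 1.3.0, with strand, on Ensembl genes of GRCm38; the annotation release is not given in the sources used here. The authors deposited TPM with 2 decimals, which hold no depth, so only the spread between mice gives precision, and a value of 0 can be a failed estimate. All 11 columns were mapped by their titles.

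Symbols came from GENCODE M21, which named 48435 of the 48795 genes. Each comparison was fitted by itself in R 4.3.3, with the moderated test of limma 3.58.1 (intensity trend on, two-sided) applied to log2 of TPM plus a pseudocount of 1. Genes averaging under 1 TPM in those libraries were dropped, and p-values were adjusted over the rest by Benjamini-Hochberg, with a threshold of 0.05. Fold changes on this scale understate the change of low genes. Ratios were tested by exact permutation of the absolute difference in means over all groupings; this two-sided form was set after values had been seen, and doubling the one-sided p would raise the smallest p for 3 against 4 libraries above 0.05 and change no call after adjustment (Python 3.11.15, numpy 2.4.6, pandas 2.3.3). Near-identical transcripts were found with blastn 2.17.0 at 95% identity over at least 100 bases. The fits were tested on simulated data.

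Memory and LZ libraries of mice 1, 3 and 4 pair by mouse, as their titles show; their deviations from the group means correlated with r = 0.0047, 0.0017 and -0.035. Values in every library are given for the catalytic β subunits, the activators, genes under 1 TPM and, per comparison, the 6 genes with the largest difference in each direction past the adjusted threshold, or at an unadjusted p under 0.05 where fewer pass; Psmc2, Psmc5, Psmd14, Psmd4, Psmd13 and Psmb4 were named after their values were seen. The genes, lists and motifs were chosen with earlier results of these data known. Settings varied were the pseudocount (0.1), the filter (none, or 5 TPM on average), the scaling (median-ratio or quantile), removal of ribosomal RNA genes, 1 fit of all 3 groups, no trend, a block for the mouse, and each library left out in turn; summing Psme2 and Psme2b was added after seeing the data. Of the antigen processing list, 1 gene is not reported here, and so neither are the counts over that list.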

Additional observations from a re-analysis of the deposited data

Results flagged for a closer look

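Dixon's test was applied to 86 sets of 4 LZ libraries of 1 gene, of which chance alone picks out about 5%, and it picked out 3. Psma2, of the α ring, was at 148.48 TPM in Myc WT LZ mouse 4, below the 194.91 to 202.89 TPM of the other Myc WT LZ libraries. Psmc4, an ATPase of the base, was at 78.28 TPM in Myc V394D mouse 5, above the 39.21 to 45.74 TPM of mice 6 to 8. Psmd9, a chaperone of the base, was at 15.64 TPM in the same mouse, above the 5.24 to 6.45 TPM of mice 6 to 8. Groups of 3 memory libraries were not examined in this way.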

How the results depend on the processing

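The number of genes chosen by symbol that passed the adjusted threshold in memory B cells, 8 with Psmc3ip counted, became 14 with quantile normalization (720 of all genes rose and 985 fell), 4 with limma without a trend (399 and 592), 3 with no filter on low values (329 and 279), 2 with the replicate block for the mouse (130 and 118), and 2 to 14 when each library was left out, with 14 without memory mouse 4 (924 and 1830), against 552 and 667 of all genes with every library. Psmb3 was lower and Psme2b higher at an adjusted p under 0.05 in each of the 16 alternatives run for them. In Myc V394D the count of 0 became 0 to 4 when each library was left out, with 4 without mouse 5, and was 0 under the other alternatives. Differences in log2 ratio from Myc WT LZ were also taken with each library left out. For Psmb8 to Psmb5 in Myc V394D the difference ran from −0.094 to 0.204, and for Psmb9 to Psmb6 in memory from −0.608 to 3.40. For Psmb10 to Psmb7 it ran from −0.390 to 1.10 in memory and from −0.078 to 0.711 in Myc V394D. The other differences in ratio kept their direction. Left-out libraries also turned the memory differences of Psme3 (−0.06 to 0.14), Psmb10 (−1.25 to 0.38) and Psmd10 (−2.18 to 0.11) and the Myc V394D differences of Psmc3ip (−0.26 to 0.20) and Psme1 (−0.18 to 0.01). The memory difference of Psme3 was −0.21 with quantile normalization, −0.07 without ribosomal RNA genes and −0.05 with the replicate block. In Myc V394D, median-ratio scaling gave 0.28 for Psmc3ip, 0.26 for Psme1 and 0.05 for Psmb3 and Psme3, quantile normalization 0.19 for Psmc3ip and 0.27 for Psme1, and removal of ribosomal RNA genes 0.26, 0.24, 0.03 and 0.03 for the 4 genes in the first order. The cause of these changes was not tested. The depth behind the TPM is unknown, and precision rests on 3 or 4 mice per group.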
